A study of Mus musculus with 4 samples.

Results

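The 10 genes described here, Pax6, Dmrta2, Lhx2, Otx1, Emx1, Emx2, Six3, Dlx1, Dlx2 and Gsx2, encode transcription factors that pattern the embryonic forebrain. They were chosen by symbol as a list of telencephalic patterning factors, with earlier results of these data known. All 10 were found among the 53465 genes of the count table. PS-RRA-mRNA-Seq, the sequencing of polyadenylated mRNA from polysome fractions after a ribosome run-off, was compared between mouse striatal cells of 2 kinds, control and HD-homo, with 2 libraries each. Control cells (STHdhQ7/Q7) carry a knock-in Htt exon 1 with 7 glutamine repeats on both alleles, and HD-homo cells (STHdhQ111/Q111) carry 111 repeats on both. All 4 libraries came from cells of C57/BL6 background that had been given harringtonine, which blocks initiation and lets elongating ribosomes finish. Both lines are immortalized, and the 2 libraries of a group share a line, so the repeat and any other difference between the lines cannot be told apart. The study describes the libraries of a group as independent experiments, and the p-values measure the spread between them. In bulk cells, fewer cells of a type and less RNA per cell cannot be told apart. Polysome reads were not divided by a matched total mRNA library, so a change in mRNA amount and a change in ribosome loading cannot be told apart either.

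During development the telencephalon is divided into a dorsal part, the pallium, which forms the cerebral cortex and hippocampus, and a ventral part, the subpallium, whose ganglionic eminences form the striatum and most cortical interneurons. Pax6, Emx1, Emx2, Lhx2, Dmrta2 and Otx1 act in dorsal progenitors, Six3 sets up the rostral neural plate, and Gsx2, Dlx1 and Dlx2 act in the ventral progenitors from which striatal neurons arise. Dorsal and ventral factors repress each other, and the opposition of Pax6 and Gsx2 positions the border between pallium and subpallium.

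In the polysomes of HD-homo cells 4 of the 6 dorsal genes, Dmrta2, Pax6, Lhx2 and Otx1, were lower than in control cells. Emx2, another dorsal gene, was not called in either direction, and Emx1 had 0 counts in all 4 libraries. The ventral genes Dlx1 and Dlx2 were read in both lines and neither was called, and Gsx2 had 0 counts throughout. Six3 was at the limit of detection in control cells and had 0 counts in HD-homo cells.

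The libraries held between 12372090 and 15472808 counts, and 12961 of the 53465 genes had enough counts to be tested. With edgeR's quasi-likelihood test, 1408 genes (10.9% of those tested) were called lower in HD-homo and 1344 (10.4%) higher at an adjusted p under 0.05, and the median log2 fold change over all tested genes was 0.0017. The biological coefficient of variation, the spread between libraries of a group beyond counting error, was 17.8%. The smallest p of an exact permutation test with 2 libraries on each side is 0.33, so every p below comes from the fit over all genes. Of 11 striatal projection neuron markers, the defining genes Drd1 and Drd2 had 0 counts in all 4 libraries, and the summed level of the list was 7.78 and 5.78 CPM (counts relative to the scaled library total) for control and 4.20 and 8.62 CPM for HD-homo. The cells thus carry the label striatal without these defining markers in their polysomes. Htt itself had a log2 fold change of -2.08 (SE 0.32, adjusted p = 3.24e-04), and since both lines are knock-ins this does not check the repeat.

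Of the 10 genes, 8 had at least 1 count in some library and 7 were tested. Of these 7, 4 were called lower, against a background of 10.9% of all tested genes, and 0 were called higher, against a background of 10.4%. Beside the count of 0, Dlx2 had an unadjusted p under 0.05 for a higher level, DESeq2 called 1 gene higher (Dlx2) and limma-voom 0. Pax6 and Dmrta2 passed the filter on low counts through the control libraries alone, and a gene that passes in this way had to differ, so the count is given as a description.

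**Figure D1:**
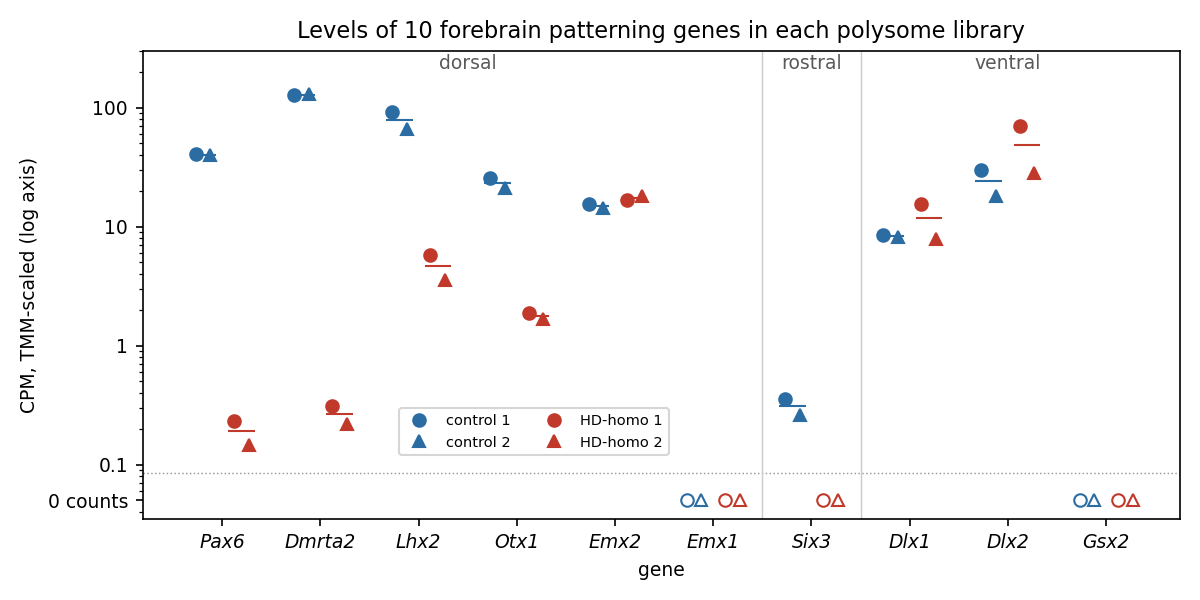
Level of each gene in each library, in CPM on a log axis, with control libraries in blue, HD-homo libraries in red and a short line at each group mean. Open symbols at the bottom mark libraries with 0 counts. Dmrta2, Pax6, Lhx2 and Otx1 are separated between the groups, Emx2 levels lie close together, and the higher HD-homo points of Dlx1 and Dlx2 are both from library 1.

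The promoters of 3 genes that fell and of Emx2, which was not called, are shown because they are the sequences from which these dorsal genes start in the reference genome. They are RefSeq windows of build GRCm38.p6 on the plus strand, from 250 bases before to 50 bases after an annotated start, of the upstream start of Pax6 (chr2:105668646-105668945), Dmrta2 (chr4:109977775-109978074), Lhx2 (chr2:38339031-38339330, also the upstream start) and Emx2 (chr19:59458440-59458739). Capitals mark TAAT and its reverse complement ATTA, the core bound by homeodomains, the DNA-binding domain that all of the 10 proteins except Dmrta2 contain.
Pax6: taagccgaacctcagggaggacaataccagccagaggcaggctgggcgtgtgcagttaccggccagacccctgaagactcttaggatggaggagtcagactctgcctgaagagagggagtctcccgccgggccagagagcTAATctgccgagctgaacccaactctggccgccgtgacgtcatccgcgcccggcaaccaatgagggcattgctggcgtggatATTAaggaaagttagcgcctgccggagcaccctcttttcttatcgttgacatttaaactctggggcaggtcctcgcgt
Dmrta2: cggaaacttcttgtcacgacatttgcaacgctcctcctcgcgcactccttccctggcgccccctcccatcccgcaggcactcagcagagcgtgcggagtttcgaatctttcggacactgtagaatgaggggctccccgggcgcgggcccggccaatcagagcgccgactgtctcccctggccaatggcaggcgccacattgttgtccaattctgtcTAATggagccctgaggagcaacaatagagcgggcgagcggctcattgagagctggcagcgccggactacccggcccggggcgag
Lhx2: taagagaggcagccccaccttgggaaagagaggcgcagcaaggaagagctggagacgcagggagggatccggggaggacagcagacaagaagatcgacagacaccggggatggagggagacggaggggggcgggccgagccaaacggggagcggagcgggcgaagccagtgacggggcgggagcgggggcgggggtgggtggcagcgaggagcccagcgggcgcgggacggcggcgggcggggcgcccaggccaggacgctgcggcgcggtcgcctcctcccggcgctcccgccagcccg
Emx2: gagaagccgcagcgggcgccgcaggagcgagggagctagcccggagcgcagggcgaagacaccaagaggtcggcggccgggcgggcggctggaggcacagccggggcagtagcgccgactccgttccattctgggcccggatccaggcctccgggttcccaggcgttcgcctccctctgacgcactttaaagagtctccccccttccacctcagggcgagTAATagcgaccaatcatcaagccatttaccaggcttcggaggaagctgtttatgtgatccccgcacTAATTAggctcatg

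All 4 windows held more CpG than the median window, with 18 CpG in Pax6, 26 in Dmrta2, 34 in Lhx2 and 26 in Emx2, against a median of 7 and a 75th percentile of 20 over 32851 RefSeq windows of the same length. The G+C content was 58.7%, 63.7%, 74.7% and 64.3% in the same order, against a median of 52.7%. TAAT, counted on both strands, occurred 2 times in Pax6, 1 time in Dmrta2, 0 times in Lhx2 and 3 times in Emx2, where 2 of the matches overlap in a TAATTA. It is a common word, present in 58.0% of all windows, whereas TAATTA is present in 5.3%. CCAAT occurred 3 times in the Dmrta2 window and 1 time in those of Pax6 and Emx2, against 37.4% of windows with at least 1 match, and GGGCGG occurred 4 times in Lhx2 and 2 times in Emx2, against 35.7%. The windows of Dmrta2 and Emx2 held the same number of CpG and differed in their counts of TAAT, CCAAT and GGGCGG. Any link between these features and the calls was not tested. A match is a description of the letters, and binding was not measured. RefSeq holds a further window, at a downstream start, for Pax6 (chr2:105682213-105682512), with a G+C content of 46.3%, 16 CpG, 2 TAAT and 0 CCAAT, and for Lhx2 (chr2:38351058-38351357), with 69.3%, 29 CpG, 0 TAAT and 0 GGGCGG, so these features differ between the starts of 1 gene. Which start the cells used was not measured. Windows were found for 9 of the 10 genes; Otx1 is named only.

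Dmrta2 (ENSMUSG00000047143) encodes a doublesex-related DM-domain factor required for the cortical hem and the hippocampus. It lies on chromosome 4 (GRCm38, 109978053 to 109983687, plus strand). The gene had 1791 and 1986 counts in the control libraries and 4 and 3 in the HD-homo libraries. Both control libraries stood far above both HD-homo libraries, and the control values lay within a few CPM of each other. The control level was 129 ± 2.64 CPM and the HD-homo level 0.265 ± 0.065 CPM (SD, n = 2 in each). The ratio of the summed and scaled counts was 488, with a 95% counting interval from 237 to 1214, which covers counting error only. The fitted log2 fold change was -8.88 (95% interval -9.63 to -8.13, edgeR adjusted p = 4.41e-09). By p, Dmrta2 was number 2 of the 1408 genes called lower. It passed the filter on low counts through the control libraries alone, so its p and rank are given as a description.

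Pax6 (ENSMUSG00000027168) encodes a paired-type homeodomain factor of cortical radial glia, where it drives neurogenesis and holds back ventral genes. It lies on chromosome 2 (105668900 to 105697364, plus strand) with 26 annotated transcripts. The library counts were 574 and 609 in control and 3 and 2 in HD-homo. The control libraries were again nearly equal, and the HD-homo counts were at the 3-count floor, the level below which absence and low abundance cannot be separated and which corresponded to between 0.197 and 0.233 CPM per library. The level averaged 40.3 ± 0.43 CPM in control and was 0.190 ± 0.062 CPM in HD-homo (SD, n = 2), a ratio of 214 with a counting interval from 91.4 to 660. The log2 fold change was -7.67 (95% interval -8.52 to -6.83, edgeR adjusted p = 2.35e-08). For Pax6 and Dmrta2 the size of the fold rests on 5 and 7 counts in the HD-homo group, and the interval from the fit can be too narrow there.

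Lhx2 (ENSMUSG00000000247) encodes a LIM-homeodomain factor that selects cortical over hem identity, and it lies on chromosome 2 (38339281 to 38369733, plus strand). It had 1292 and 1014 counts in control and 74 and 49 in HD-homo, which is 91.4 and 66.6 CPM against 5.76 and 3.58 CPM. The groups did not overlap, but within each group library 1 was above library 2. The level fell from 79.0 ± 17.5 to 4.67 ± 1.54 CPM (SD, n = 2), a ratio of 16.9 with a counting interval from 14.1 to 20.5. The log2 fold change was -4.08 (95% interval -4.73 to -3.43, edgeR adjusted p = 4.43e-07). Unlike Pax6 and Dmrta2, Lhx2 remained well above the floor in HD-homo polysomes.

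Otx1 (ENSMUSG00000005917) encodes an orthodenticle homeodomain factor of the forebrain and midbrain that is needed for normal cortical size, and it lies on chromosome 11 (21994764 to 22002897, minus strand). The counts were 365 and 320 in control and 24 and 23 in HD-homo. Library values within each group were close together and the groups did not overlap. The level fell from 23.4 ± 3.40 to 1.77 ± 0.13 CPM (SD, n = 2), a ratio of 13.2 with a counting interval from 9.80 to 18.1, and a log2 fold change of -3.72 (95% interval -4.37 to -3.07, edgeR adjusted p = 9.86e-07). The fitted changes of Dmrta2 and Pax6 were thus larger than those of Lhx2 and Otx1, and the intervals of one pair did not reach those of the other. For Dmrta2 and Pax6 the size rests on HD-homo counts at or near the floor.

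Emx2 (ENSMUSG00000043969) encodes an empty spiracles homeodomain factor that acts in caudal and medial cortex and in the hippocampus, and it lies on chromosome 19 (59458372 to 59465357, plus strand). It had 218 and 218 counts in control and 214 and 246 in HD-homo. Scaled for depth these were 15.4 and 14.3 CPM against 16.7 and 18.0 CPM, so both HD-homo libraries were slightly above both control libraries. The log2 fold change was 0.22, with a 95% interval from -0.30 to 0.74 and an edgeR adjusted p of 0.604, so a difference of up to that size in either direction was not resolved. The interval did not reach those of the 4 genes that fell. Its paralogue Emx1 (ENSMUSG00000033726, chromosome 6, 85187438 to 85204462, plus strand), which marks the dorsal telencephalic lineage, had 0 counts in each library, which allows up to 0.197 to 0.233 CPM.

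Six3 (ENSMUSG00000038805), a sine oculis homeodomain factor that keeps the rostral neural plate free of Wnt signals, lies on chromosome 17 (85613608 to 85629302, plus strand). It had 5 and 4 counts in control and 0 and 0 in HD-homo and was too low to be tested. With the HD-homo group set at a floor of 3 counts in all, it was at least 2.71-fold lower there. This bound was 1.40 without HD-homo 1 and 1.31 without HD-homo 2, and it says little at this depth.

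Neither of the ventral genes that were detected was called. Dlx2 (ENSMUSG00000023391) and Dlx1 (ENSMUSG00000041911) encode distal-less homeodomain factors that are needed together for the differentiation and migration of neurons from the ganglionic eminences. They are convergently placed neighbours on chromosome 2, Dlx1 at 71528113 to 71533981 on the plus strand and Dlx2 at 71543408 to 71546754 on the minus strand, with 9427 bp between them. Dlx2 had 423 and 273 counts in control and 896 and 383 in HD-homo, or 29.9 and 17.9 CPM against 69.7 and 28.0 CPM. HD-homo 1 was high and HD-homo 2 lay below control 1, so the groups overlapped. The means were 23.9 ± 8.48 CPM for control and 48.8 ± 29.5 CPM for HD-homo (SD, n = 2). The log2 fold change was 1.03 (95% interval 0.23 to 1.83), with an unadjusted p of 0.0152 and an adjusted p of 0.0661 by edgeR. Without HD-homo 1 it was 0.24 (adjusted p = 0.701), and without control 2 it was 0.70 (adjusted p = 0.145). Without HD-homo 2 it was 1.54 (adjusted p = 1.43e-04), without control 1 it was 1.45 (adjusted p = 2.73e-04), and DESeq2 called it at an adjusted p of 0.0403. The direction was the same in each of these fits, and the size and the call depended on the library left out.

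Dlx1 had 121 and 124 counts in control and 199 and 108 in HD-homo, or 8.56 and 8.14 CPM against 15.5 and 7.89 CPM. As for Dlx2, HD-homo 1 was the high library and HD-homo 2 was within or below the control range. The log2 fold change was 0.48 (95% interval -0.20 to 1.17, edgeR adjusted p = 0.352), and without HD-homo 1 it was -0.065, in the other direction. Between the 2 HD-homo libraries the log2 difference, library 1 minus library 2, was 0.97 for Dlx1 and 1.32 for Dlx2. In absolute size these lay at the 94.7th and 97.7th percentiles of all tested genes, so these libraries lay further apart in both genes than in most. Control 1 was also above control 2 for Dlx2, by 0.74, but the control values of Dlx1 were nearly equal. Gsx2 (ENSMUSG00000035946, chromosome 5, 75075601 to 75077893, plus strand), which specifies lateral ganglionic eminence progenitors and stands above the Dlx genes, had 0 counts in all 4 libraries.

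**Figure D2:**
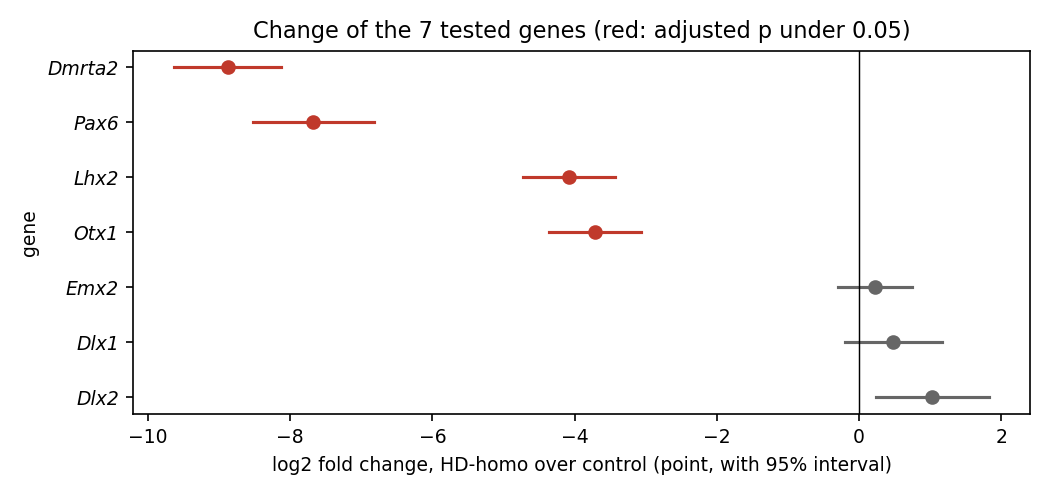
Log2 fold change of HD-homo over control for the 7 tested genes, with points for the edgeR estimate and lines for its 95% interval. Red marks an adjusted p under 0.05. Dmrta2 (-8.88) and Pax6 (-7.67) lie apart from Lhx2 (-4.08) and Otx1 (-3.72), and the interval of Dlx2, which was not called, starts at 0.23.

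Levels between genes were compared per kb of annotated exon (CPM per kb), a scale that understates a gene whose annotation holds exons the cells do not use. In control polysomes the mean level was highest for Dmrta2 (44.0 CPM per kb), followed by Lhx2 (18.0), Dlx2 (8.38), Emx2 (4.95), Otx1 (4.32), Pax6 (3.45), Dlx1 (1.55) and Six3 (0.057). Emx2, at 5.14 and 4.77 CPM per kb, and Otx1, at 4.76 and 3.88 CPM per kb, were adjacent with ranges that all but touched. In HD-homo polysomes the order of mean levels was Dlx2 (17.1 CPM per kb), Emx2 (5.77), Dlx1 (2.17), Lhx2 (1.06), Otx1 (0.327), Dmrta2 (0.0907) and Pax6 (0.0162). Dmrta2 thus moved from the highest of the detected genes to below Otx1, and Dlx2 became the highest. The Dlx2 level per kb in HD-homo was 24.4 and 9.80 in the 2 libraries, both above the 5.55 and 5.98 of Emx2.

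**Figure D3:**
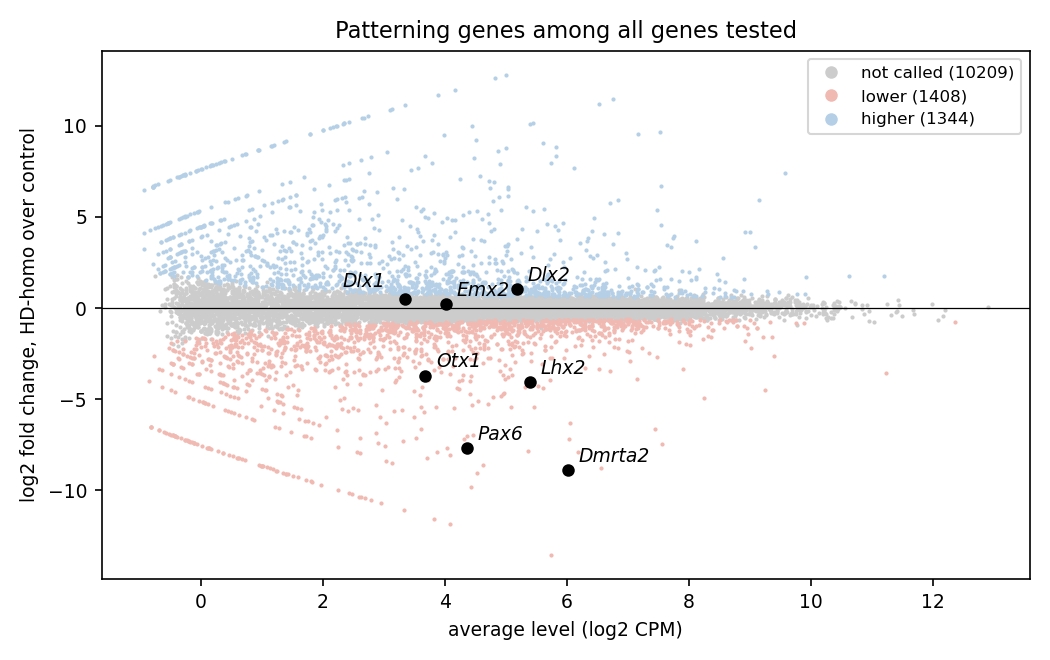
Log2 fold change of HD-homo over control against average level in log2 CPM for all 12961 tested genes, with genes called higher in blue, called lower in red and the others in grey. The 7 tested patterning genes are black points. Dmrta2 and Pax6 lie among the lowest fold changes at their level, and the diagonal rows at low levels are genes with 0 or few counts in a group.

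Antisense and neighbouring genes were read beside the 10 genes, because the libraries were made with a directional kit but the strand setting of the counting is not given in the sources used here, so reads of a gene and its antisense partner cannot be told apart with certainty. Pax6os1, antisense to Pax6, had 5 and 10 counts in control and 0 and 0 in HD-homo and was too low to be tested. Emx2os, antisense to Emx2, had 25 and 16 counts in control and 19 and 15 in HD-homo, with a log2 fold change of -0.13 (edgeR adjusted p = 0.886). Both partners had far fewer counts than their sense genes in control cells. Gm27197, antisense to Lhx2, had 1 and 5 counts in control and 0 and 0 in HD-homo. Dlx1as, Six3os1, Dlx6os1 and Otx2os1 had between 0 and 3 counts in each library.

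Of the 8 nearest protein-coding neighbours of the 4 genes that fell, 7 were tested and 0 were called by edgeR, DESeq2 or limma-voom, with 0 at an unadjusted p under 0.05 in edgeR. For Pax6 the log2 fold changes were -0.07 for Elp4, whose gene ends 3663 bp from Pax6, and 0.22 for Rcn1. For Otx1 they were -0.54 for Ehbp1, 2931 bp away, and 0.53 for Wdpcp, and for Lhx2 they were -0.51 for Dennd1a and 0.41 for Nek6. For Dmrta2, Faf1 had 0.36 and Elavl4 was too low to be tested. None of these values approached the change of the patterning gene beside it. Around all 10 genes, 17 of 18 such neighbours were tested, of which 5 were called higher, Pdgfra (5.12) beside Gsx2 among them, and 0 lower. Between 3 and 4 were called higher when a library was left out.

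Of 23 further dorsal factors, genes of the pallium, 7 had 0 counts in all libraries and 11 were tested. Of these 11, 8 were called lower, 1 higher and 2 neither, with a median log2 fold change of -1.39. Under a filter of 10 or more counts per library 6 were called lower and 0 higher, because Dmrt3 and Dmrta1 passed the filter through control alone and Zic1 through HD-homo alone. Without HD-homo 1 the count of lower genes was 7, and without HD-homo 2 it was 6. Nr2f1 (COUP-TFI), which patterns caudal cortex, fell from 41.9 ± 3.74 to 1.02 ± 0.31 CPM (SD, n = 2), a log2 fold change of -5.35 (edgeR adjusted p = 8.34e-08). Its paralogue Nr2f2 fell by 1.39 and the zinc finger gene Zic2 by 2.26 on the log2 scale. Dmrt3, a DM-domain gene that acts with Dmrta2 in dorsomedial cortex, had 84 and 61 counts in control and 0 and 0 in HD-homo, at least 43.7-fold lower, or at least 22.5-fold and 21.2-fold without HD-homo 1 or 2. Zic1, a dorsal midline factor, was the exception, with 2 and 3 counts in control and 266 and 197 in HD-homo (log2 fold change 6.61, edgeR adjusted p = 1.98e-07).

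Of 24 further ventral factors only 6 could be tested, and 1 was called higher, 1 lower and 4 neither, with a median log2 fold change of 0.12. Foxp1, a forkhead factor of striatal projection neurons, rose from 59.2 to 132 CPM (log2 fold change 1.16, edgeR adjusted p = 0.00125). Meis2, a TALE homeodomain factor of the lateral ganglionic eminence, fell from 30.9 to 12.3 CPM (-1.33, adjusted p = 0.00289). Lhx6, a marker of medial ganglionic eminence interneurons, had nearly equal levels of 8.35 and 8.27 CPM and a log2 fold change of -0.01.

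Paralogues of the 10 genes were followed by family, and of 36 listed, 13 were tested, 9 were called lower and 2 higher, with a median of -1.92. Of the 9, Lhx1, Dmrt3, Dmrta1, Pax2, Pax3 and Isl2 had between 0 and 4 counts in each HD-homo library and passed the filter through control alone, and under a filter of 10 or more counts per library 3 were called lower. Of these 13, Dmrt3, Dmrta1, Lhx6 and Lhx9 were also on the dorsal or ventral list. Lhx1, a LIM-homeodomain gene like Lhx2, had 452 and 526 counts in control and 0 and 0 in HD-homo, at least 295-fold lower (at least 152-fold without HD-homo 1 and 143-fold without HD-homo 2). In the sine oculis family Six4 (-1.92) fell and Six2 (2.27) rose, as did Pax9 (2.13) of the Pax family, all by edgeR. Of 15 cofactors of LIM-homeodomain and Groucho-dependent factors, 12 were tested, 2 were called lower and 0 higher, with a median of -0.16. Lmo4, a LIM-only protein that competes for Ldb1, fell from 189 to 96.1 CPM (-0.98, edgeR adjusted p = 0.00242), and Ldb1, the bridging partner of Lhx2, had -0.25 (adjusted p = 0.445). Lmo1 was called with a log2 fold change of -0.76, and its call was lost in each of the 4 fits that left out a library. Of the 16 listed genes reported to act downstream, 3 were tested and 1, the semaphorin receptor Nrp2, was called lower, from 69.7 to 18.3 CPM.

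**Figure D4:**
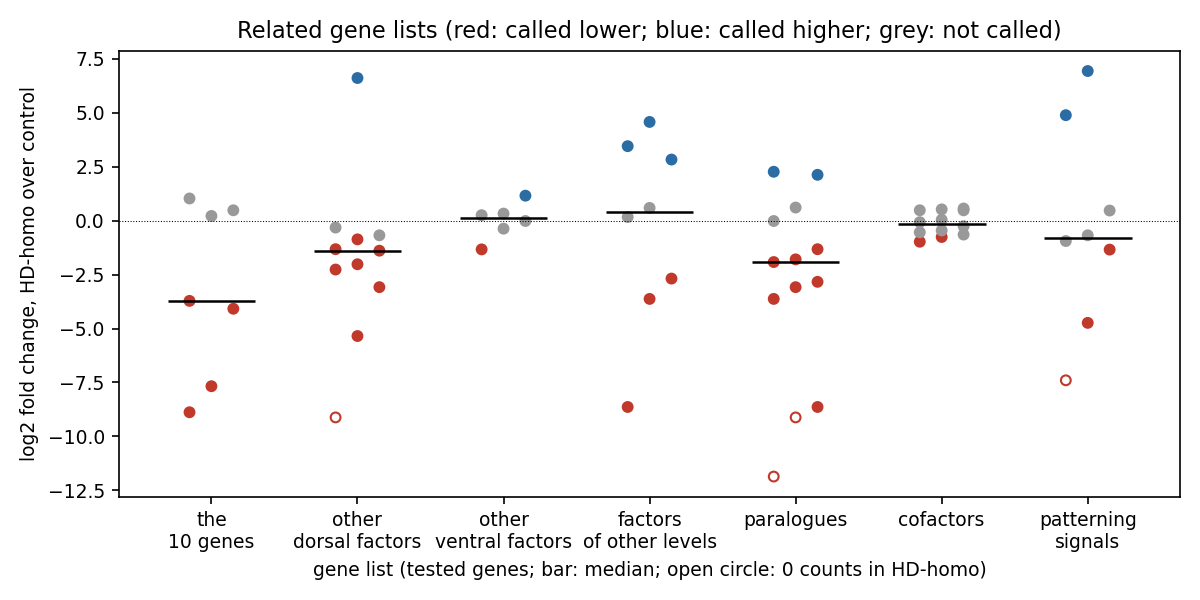
Log2 fold change of HD-homo over control for each tested gene of 7 lists, in red where called lower, blue where called higher and grey where not called, with a bar at the list median. Open circles are genes with 0 counts in both HD-homo libraries, whose fitted value depends on the prior count. Medians run from -3.72 for the 7 tested patterning genes to 0.38 for factors of other axial levels, against 0.0017 over all tested genes.

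Markers of cell type were called in both directions. Of 11 neural progenitor markers, 7 were tested, and 3 (Nes, Sox2 and Notch1) were called lower and 0 higher. Notch1 (-0.97) lost its call without HD-homo 2, where its log2 fold change was -0.82. Among the tested markers not called, Msi1 (-0.76) and Vim (-0.67) had negative log2 fold changes, and Slc1a3 (0.93) and Fabp7 (0.83) positive ones. When a library was left out, Slc1a3 ranged from 0.60 to 1.21 and Fabp7 from 0.17 to 2.02. The summed level of the 11 markers was 4832 and 6341 CPM for the control libraries against 3050 and 3766 CPM for HD-homo, most of it Vim. Of 10 mesenchymal markers, 9 were tested, 4 (Col1a1, Col1a2, Pdgfra and Dcn) were called higher and 0 lower. The 5 not called were Col3a1 (0.60), Twist1 (0.40), Prrx1 (0.22), Pdgfrb (0.006) and Twist2 (-0.17), by log2 fold change. The summed levels of the 10 were 1445 and 2386 CPM for control against 5864 and 5705 CPM for HD-homo. Of the other cell type lists, 1 of 3 tested neuron markers and 2 of 2 neural crest markers were called lower. So was 1 of 1 epithelial marker, Krt8 (-3.50). The summed level of the epithelial list was 2.83 and 5.52 CPM for control and 1.32 and 1.61 CPM for HD-homo. The neural crest marker Erbb3 lost its call without control 1 and without HD-homo 2. Of the oligodendrocyte and microglia markers 1 of 2 tested was called higher in each list, and 0 astrocyte and 0 endothelial markers could be tested. The microglia marker Csf1r lost its call in 3 of the 4 fits that left out a library, all but that without HD-homo 2. Of 4 tested striatal projection neuron markers 1 was called higher and 2 lower, and of these Ppp1r1b kept its call only without HD-homo 1 and Pde10a only without control 2. Ppp1r1b had 4 and 4 counts in control and 14 and 20 in HD-homo. The oligodendrocyte marker Mbp had 1 and 1 in control and 52 and 35 in HD-homo, and both passed the filter through HD-homo alone. Adora2a (45 and 26 counts in control, 7 and 3 in HD-homo) and Pde10a (29 and 28, 7 and 9) passed through control alone, as did Krt8. The calls of these markers are thus given as a description. The part of the marker differences in the values of the patterning genes was not tested.

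Each tested gene was also set beside the genes whose levels over the 4 libraries were closest to its own, by Euclidean distance in log2 CPM. Pax6 was closest to Sorbs2 (distance 0.83), an adaptor protein of the actin cytoskeleton, Dmrta2 to the adhesion molecule Cadm1 (1.15), Lhx2 to Fam213a (0.42) and Otx1 to the phosphodiesterase Pde3b (0.67). Emx2 was closest to Oser1 (0.16). The pattern of Dlx1, high in HD-homo 1 alone, was closest to that of Hoxb3 (0.19), and that of Dlx2 was closest to that of E2f8 (0.63). With 4 libraries in 2 groups these distances mostly reflect level and fold change, and they say nothing of shared control.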

How the data were processed

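PS-RRA-mRNA-Seq was made from 2 control and 2 HD-homo libraries with a directional poly(A) kit, per the labels. The authors made the deposited counts, whole numbers per gene and library, with cutadapt for adapters, Bowtie 1.1.2 to discard ribosomal and transfer RNA, and RSEM 1.3.0 on GRCm38.p5, per the submitters' processing notes; DESeq2 is also named there. Whether RSEM's estimates were rounded is, like the strand setting, not given in the sources used here. A second deposited table of scaled values was not used.

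From the counts, genes passing filterByExpr (minimum count 10) were tested with edgeR 4.0.16 (R 4.3.3) by quasi-likelihood after TMM scaling, and p-values were adjusted by Benjamini-Hochberg over all 12961 genes tested. CPM in the text are TMM-scaled, SD and n are over libraries, and standard errors follow from the F statistic and tend to be too small for groups of few counts. Ratios carry exact binomial (Clopper-Pearson) intervals at 95%, which cover counting error only. A group with 0 counts was set against a floor of 3 counts. The scripts were tested on simulated data first.

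The 10 genes and all lists (other dorsal and ventral factors, factors of other axial levels, paralogues, cofactors, signals, downstream genes, antisense partners and cell type markers) were chosen with earlier results of these data known. Named were the 10 genes, their antisense partners and nearest protein-coding neighbours, from each list up to 5 tested genes with the lowest p, and the 2 genes nearest in pattern; some genes within this rule are not reported here, and a few others are named as counter-examples or as markers. Marker lists of neurons, astrocytes, oligodendrocytes, neural crest, endothelium, microglia and epithelium had 3 or fewer tested genes each. Positions are from GENCODE annotation of GRCm38, release M21, whereas the authors used M16, matched by gene ID. Promoters are RefSeq windows of GRCm38.p6. Alternatives were other scalings, filters and tests (DESeq2 1.42.0, limma-voom in limma 3.58.1), the replicate number as a block, and leaving out each library.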

Additional observations from a re-analysis of the deposited data

How the results depend on the processing

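Dmrta2, Pax6, Lhx2 and Otx1 were called lower in every alternative that tested them. Their log2 fold changes ranged from -9.12 to -8.65, -8.01 to -7.38, -4.44 to -3.77 and -3.86 to -3.56, and Emx2 ranged from 0.16 to 0.29 without a call. With at least 10 counts in every library, Pax6 and Dmrta2 could not be tested. Of the patterning genes that could be, Lhx2 and Otx1 were called lower, and Emx2, Dlx1 and Dlx2 were not called. Over all genes 815 were higher and 883 lower under this filter, whose number of tested genes is not given here, so these are not shares. The count of the 10 genes called higher was 1 (Dlx2) in place of 0 with no filter on low counts (adjusted p = 6.15e-04) and with DESeq2, and its adjusted p ranged from 1.45e-06 to 0.701 over all alternatives. Leaving out 1 library gave between 0 and 1 of the 10 genes higher and 4 lower, and over all genes between 1168 and 1262 higher and between 1200 and 1327 lower. Dlx1 ranged from -0.065, the reverse direction, without HD-homo 1 to 0.89 without HD-homo 2. The median over all genes was 0.0017 with TMM and at most 0.0203 with the other scalings.

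The replicate number as a block called 2126 genes higher and 2350 lower, and 1 of the 10 genes higher, Dlx2 (0.95, adjusted p = 1.45e-06). The labels do not say that numbers pair libraries. Across genes the differences between replicate 1 and 2 correlated at 0.33 between the groups, over 2 pairs only. Depth limits Six3, Emx1 and Gsx2, which lay near or under 3 counts per library.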

Other observations

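Of 23 factors that pattern regions outside the telencephalon, 8 had 0 counts in all libraries and 8 were tested. Of the tested genes 3 were called higher and 3 lower, with a median log2 fold change of 0.38. Pax2 and Pax3 passed the filter through control alone and Irx1 and Irx2 through HD-homo alone, and under a filter of 10 or more counts per library 1 was called higher and 1 lower. Pax2, which acts in the optic stalk and at the midbrain-hindbrain border, had 802 and 613 counts in control and 1 and 2 in HD-homo, a ratio of 426 with a counting interval from 146 to 2070. The ratio was 330 without HD-homo 1 and 619 without HD-homo 2. En1, a homeodomain factor of the midbrain and anterior hindbrain, fell from 12.4 to 1.93 CPM (log2 fold change -2.68, edgeR adjusted p = 3.19e-05). The Iroquois factor Irx3 rose from 20.5 to 146 CPM (2.83, edgeR adjusted p = 1.53e-06). Irx2 rose by 4.58, and the value was 3.84 without control 1 and 6.39 without control 2.

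Of 15 signals of the forebrain patterning centres, 8 were tested, 2 were called higher and 3 lower, with a median log2 fold change of -0.81. Bmp2 and Fgf15 passed the filter through control alone and Bmp7 and Fgf18 through HD-homo alone, and under a filter of 10 or more counts per library 0 were called higher by edgeR and 1 lower. Wnt7b, a Wnt ligand of cortical progenitors, fell from 22.8 to 8.97 CPM (-1.34, edgeR adjusted p = 0.00462). Bmp2 had 23 and 21 counts in control and 0 and 0 in HD-homo, at least 13.3-fold lower (at least 6.84-fold without HD-homo 1 and 6.42-fold without HD-homo 2), whereas Bmp7 had 1 and 0 counts in control and 63 and 77 in HD-homo. Fgf18 rose by 4.89 on the log2 scale, and by 5.63 without control 1. Ligands of the BMP and FGF families were thus found on both sides, Fgf15 having 24 and 42 counts in control and 0 and 2 in HD-homo.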
